A study of Mus musculus with 30 samples.

Results

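Oestrogen signalling was followed through 4 genes in mouse soleus, a slow postural muscle of the lower hindlimb, namely the receptor genes Esr1 and Gper1 and the receptor-induced genes Greb1 and Pgr. They were 4 of 56980 rows of the count table, matched by their Ensembl identifiers, and all 4 were among the 16932 genes with enough reads to be tested. They were chosen by the measured difference between genotypes, in which Esr1 counts were higher without muscle AMPK, and the values between genotypes are a description of that choice and carry no p. Total RNA from 30 mice of strain C57BL/6J, aged 3 to 4 months, had been sequenced, with 12.1 to 20.9 M counted reads per library. Controls (Ctrl) carried floxed alleles of AMPKalpha1 and alpha2, the catalytic subunits of the energy-sensing AMP-activated protein kinase, and no Cre, while the muscle-specific double knockouts (mKO) are labelled as lacking both genes in muscle. Mice were ambulatory (AMB) or had their hindlimbs unloaded (HU) for 4 weeks, which gave 8 AMB Ctrl, 7 AMB mKO, 7 HU Ctrl and 8 HU mKO mice, with both sexes in each group. The labels do not name the Cre line, its promoter or any drug given to start recombination, and no group carried Cre alone, so effects of Cre and of AMPK loss cannot be told apart.

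Oestrogen acts through nuclear receptors, encoded by Esr1 (receptor alpha) and Esr2 (receptor beta), which bind DNA when occupied by hormone and switch on target genes, and through Gper1, a G protein-coupled receptor in membranes. Pgr, the progesterone receptor, and Greb1, a cofactor of the receptor, are among the genes that receptor alpha is best known to induce in the uterus and in breast cancer cells. In skeletal muscle, receptor alpha is known for roles in metabolism and in the maintenance of muscle mass and strength. Some inducible forms of Cre are fused to the hormone-binding part of this receptor. Counts per gene do not separate reads of the native Esr1 gene from reads of a transgene that holds part of its sequence, so the values below are counts assigned to Esr1.

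As a check of the labels, Prkaa2, the gene of AMPKalpha2, fell in mKO mice (log2 -1.89 ± 0.26 SE in ambulatory and -1.64 ± 0.24 in unloaded mice, adjusted p = 0.000367 and 0.00192, edgeR quasi-likelihood test with Benjamini-Hochberg adjustment). Prkaa1, the gene of AMPKalpha1, did not pass (log2 -0.20 ± 0.18 and -0.60 ± 0.18, unadjusted p = 0.278 and 0.00239, adjusted p = 0.891 and 1, edgeR). Markers of muscle fibres were abundant in all libraries but 1. In AMB mKO replicate 2 the 10 fibre genes summed to 8835 normalised CPM (counts scaled to the size of each library), against 198440 to 278030 in the rest of its group, and the 10 adipocyte genes to 9917 CPM against 194 to 1813. HU mKO replicates 2 and 3 were next highest in adipocyte genes, with 2254 and 2356 CPM. Prkaa1 measured 36.2 CPM in AMB mKO replicate 2 and 8.21 to 17.9 CPM in the rest of its group. The AMB Ctrl mice had 16.5 to 24.9 CPM of Prkaa1. Values without AMB mKO replicate 2 stand beside several of the results. In such bulk samples, fewer cells of a type and less RNA per cell cannot be told apart.

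Counts assigned to Esr1 (ENSMUSG00000019768) were an order of magnitude higher in mKO than in control soleus under both loading conditions. The AMB Ctrl mice measured 23.5, 26.4 and 36.9 CPM at the lowest, the median and the highest, and the AMB mKO mice 76.6, 458 and 563 CPM. The HU Ctrl mice measured 28.1, 32.9 and 46.0 CPM and the HU mKO mice 130, 260 and 685 CPM. Every mKO mouse lay above every control mouse of its loading condition, and the share of all genes that separate so was not counted. Group means were 28.1 ± 4.97 (SD, n = 8) and 387 ± 172 CPM (SD, n = 7) in ambulatory mice, a ratio of 13.8, and 34.6 ± 6.12 (SD, n = 7) and 300.4 ± 175 CPM (SD, n = 8) in unloaded mice, a ratio of 8.68. The fitted log2 differences, from a model with terms for group and sex, were 3.81 ± 0.34 and 3.10 ± 0.33 (SE), and the first was 4.06 without AMB mKO replicate 2. In each loading condition the model called 3 of 16932 genes between genotypes, or 0.0177% in ambulatory and 0.0177% in unloaded mice, and Esr1 was one of the 3 in both, which follows from how it was chosen.

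**Figure D1:**
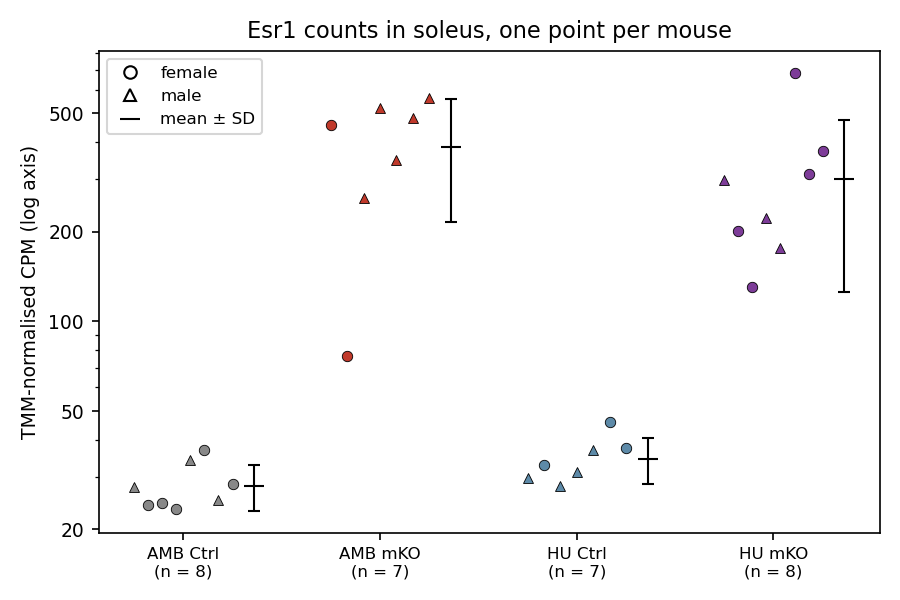
Normalised counts assigned to Esr1 (CPM, log axis) for each mouse in the 4 groups, circles for females and triangles for males, with the mean and SD of each group. All 15 mKO mice lie above all 15 controls, and the lowest mKO value, 76.6 CPM, belongs to AMB mKO replicate 2.

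The mKO mice differed among themselves far more than the controls did. The lowest of them, AMB mKO replicate 2 at 76.6 CPM, was the library poor in fibre transcripts, and the next lowest, HU mKO replicate 3 at 130 CPM, was the library with the highest adipocyte sum among HU mKO mice. Whether the tissue mix set these low values was not tested. The means also differed between title letters a, b and c, which the labels do not explain, with b highest in both loading conditions. In HU mKO mice they were 199.8 CPM in letter a (n = 2), 458 in b (n = 3) and 210 in c (n = 3). In AMB mKO mice they were 433 (n = 2), 501 (n = 3) and 168 (n = 2). The AMB mKO mice of letter c were replicate 2 and replicate 3, the latter at 260 CPM. Differences of Esr1 between letters were not tested. In controls the letter means stayed between 25.5 and 41.8 CPM. Among unloaded mice all those of letter a were male and all those of letter b female, and letter c held both, so that letters a and b cannot be told apart from sex there.

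No difference of Esr1 with unloading or sex passed the test. Unloaded minus ambulatory was 0.31 ± 0.30 (log2, SE) in controls (adjusted p = 0.551) and -0.40 ± 0.32 in mKO mice (adjusted p = 0.433), by edgeR's quasi-likelihood test. The HU Ctrl and AMB Ctrl ranges overlapped, with 3 of 7 HU Ctrl mice above the highest AMB Ctrl mouse, and 1 of 8 HU mKO mice lay above the highest AMB mKO mouse. Females minus males was 0.07 ± 0.23 (adjusted p = 0.927). The difference between the unloading effects of mKO and control mice, a description because it contains the genotype difference, was -0.71 ± 0.45. No gene was called for that interaction (0 of 16932, 0%, edgeR), where 410 had an unadjusted p below 0.05, and DESeq2 called 0.

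None of the genes beside Esr1 on chromosome 10 was called between genotypes, where 0.0177% of all genes were. The 3 nearest protein-coding genes before it, Ccdc170, Armt1 and Rmnd1, and 2 of the 3 after it, Syne1 and Myct1, were tested. Syne1, which encodes a giant protein of the nuclear envelope, differed by -0.13 ± 0.15 in ambulatory and 0.00 ± 0.14 in unloaded mice (log2, SE; adjusted p = 0.929 and 1). Ccdc170, the nearest gene before Esr1, differed by -0.12 ± 0.29 and -0.07 ± 0.29 (adjusted p = 0.979 and 1). The smallest unadjusted p among them belonged, in ambulatory mice, to Myct1 (log2 -0.60 ± 0.27, unadjusted p = 0.0321, adjusted p = 0.628, edgeR) and Rmnd1 (log2 -0.40 ± 0.19, unadjusted p = 0.0427, adjusted p = 0.644). These differences were -0.40 ± 0.25 and -0.22 ± 0.15 without AMB mKO replicate 2 (log2, SE; adjusted p = 1 for both). Vip, the third gene after Esr1, had too few reads to be tested.

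Per kilobase of exon, counts assigned to Esr1 were low in controls and the highest of the steroid receptor genes compared in AMB mKO mice. The length used, 13661 bases, is that of the native exons. It would not apply to reads of a transgene that holds part of them, so the ranking in mKO mice depends on their origin. In AMB Ctrl mice the glucocorticoid receptor Nr3c1 measured 17.7 ± 3.21 CPM per kilobase (SD, n = 8), the mineralocorticoid receptor Nr3c2 5.75 ± 0.89 and Esr1 2.05 ± 0.36. Below them came Gper1 at 1.06 ± 0.23, Greb1 at 0.65 ± 0.45 and Pgr at 0.17 ± 0.21, where Greb1 overlapped Gper1 and Pgr. In AMB mKO mice Esr1 measured 28.3 ± 12.6 CPM per kilobase (SD, n = 7) against 18.2 ± 3.71 for Nr3c1, with overlapping ranges. Esr2, the gene of receptor beta, was at or near 0 everywhere, with 0 to 4 reads per library and 3, 3, 9 and 6 reads over the AMB Ctrl, AMB mKO, HU Ctrl and HU mKO mice. It was too low to be tested.

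Gper1 (ENSMUSG00000053647) was low in all 4 groups. Its means were 2.69 ± 0.58 CPM in AMB Ctrl (SD, n = 8), 2.45 ± 1.02 in AMB mKO (n = 7), 2.33 ± 0.38 in HU Ctrl (n = 7) and 1.95 ± 0.52 in HU mKO mice (n = 8). All pairs of groups overlapped, and the whole series ran from 0.96 to 4.15 CPM, or 13 to 64 reads. The fitted genotype differences were -0.19 ± 0.23 and -0.23 ± 0.22 (log2, SE). Unloaded minus ambulatory was -0.23 ± 0.22 in controls and -0.27 ± 0.23 in mKO mice (adjusted p = 0.543 and 0.466, edgeR), and females minus males -0.14 ± 0.16 (adjusted p = 0.774).

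Greb1 (ENSMUSG00000036523) had low values in ambulatory mKO mice, beside their high Esr1 counts. The AMB Ctrl mice measured 3.34, 4.89 and 16.5 CPM at the lowest, the median and the highest, and the AMB mKO mice 1.54, 2.60 and 4.78 CPM. Of the 7 AMB mKO mice, 5 lay below the lowest AMB Ctrl mouse and none above the highest. In unloaded mice the same 3 values were 1.05, 6.01 and 10.3 CPM in controls and 1.03, 7.09 and 14.3 CPM in mKO mice, with overlapping ranges. The fitted genotype differences were -0.83 ± 0.48 and 0.21 ± 0.44 (log2, SE). The ambulatory value was -0.55 without AMB Ctrl replicate 6, the highest mouse, and the unloaded one -0.10 without HU mKO replicate 1.

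Greb1 with unloading did not pass in controls (log2 -0.07 ± 0.44 SE, adjusted p = 0.944). In mKO mice it was 0.97 ± 0.48 higher, which missed the threshold (unadjusted p = 0.0505, adjusted p = 0.185, edgeR), with 5 of 8 HU mKO mice above the highest AMB mKO mouse and 1 below the lowest. Over all alternatives that adjusted p ran from 0.0873 to 0.472. The unloading comparisons called 11.1% of all genes tested in controls and 10.1% in mKO mice. Females minus males was 0.55 ± 0.34 (adjusted p = 0.515, with 0.213% of genes called).

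Pgr (ENSMUSG00000031870) was near the limit of detection, and its groups overlapped. The AMB Ctrl mice measured 0.19, 0.36 and 4.58 CPM at the lowest, the median and the highest, the AMB mKO mice 0, 0.45 and 3.58, the HU Ctrl mice 0, 0.05 and 3.96, and the HU mKO mice 0.08, 0.49 and 0.90 CPM. In reads these were 3 to 79, 0 to 51, 0 to 60 and 1 to 13 per library, with 1 AMB mKO and 3 HU Ctrl libraries at 0. The fitted genotype differences were 0.33 ± 0.89 and -0.71 ± 0.94 (log2, SE), and they became -0.65 without AMB mKO replicate 5 and 0.38 without HU Ctrl replicate 6. In ambulatory mice the ratio of the group means was 0.72, of opposite sign to the fitted value, which adjusts for sex.

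High Pgr values fell in title letter a in ambulatory controls and in females in unloaded controls. In AMB Ctrl mice letter a averaged 3.47 ± 1.43 CPM (SD, n = 3) and letters b and c 0.32 ± 0.12 (n = 2) and 0.27 ± 0.07 (n = 3). The 3 HU Ctrl females measured 0.62 to 3.96 CPM (9 to 60 reads) and the 4 HU Ctrl males 0 to 0.05 CPM (0 to 1 reads). The share of all genes that separate these few mice in this way was not counted. The letter a mice of that group were male and the letter b mice female. Females minus males was 1.66 ± 0.71 over all mice (log2 ± SE, unadjusted p = 0.0257, adjusted p = 0.327, edgeR). It was 2.71 ± 0.91 in controls (unadjusted p = 0.00599, adjusted p = 0.984, edgeR) and 0.38 ± 0.94 in mKO mice (unadjusted p = 0.689, adjusted p = 0.933). The difference between these sex effects was -2.33 ± 1.34 (adjusted p = 0.876), and no gene at all was called for it (0 of 16932, 0%, edgeR, with 1037 at an unadjusted p below 0.05). Unloaded minus ambulatory was -0.96 ± 0.86 in controls (adjusted p = 0.513) and 4.01-fold lower in mKO mice (unadjusted p = 0.0497, adjusted p = 0.183), with overlapping ranges. In mKO mice the ratio of the group means was 0.42, the medians were 0.45 CPM in AMB mKO and 0.49 CPM in HU mKO mice, and without AMB mKO replicate 5 the fitted difference was -1.04 (log2).

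**Figure D2:**
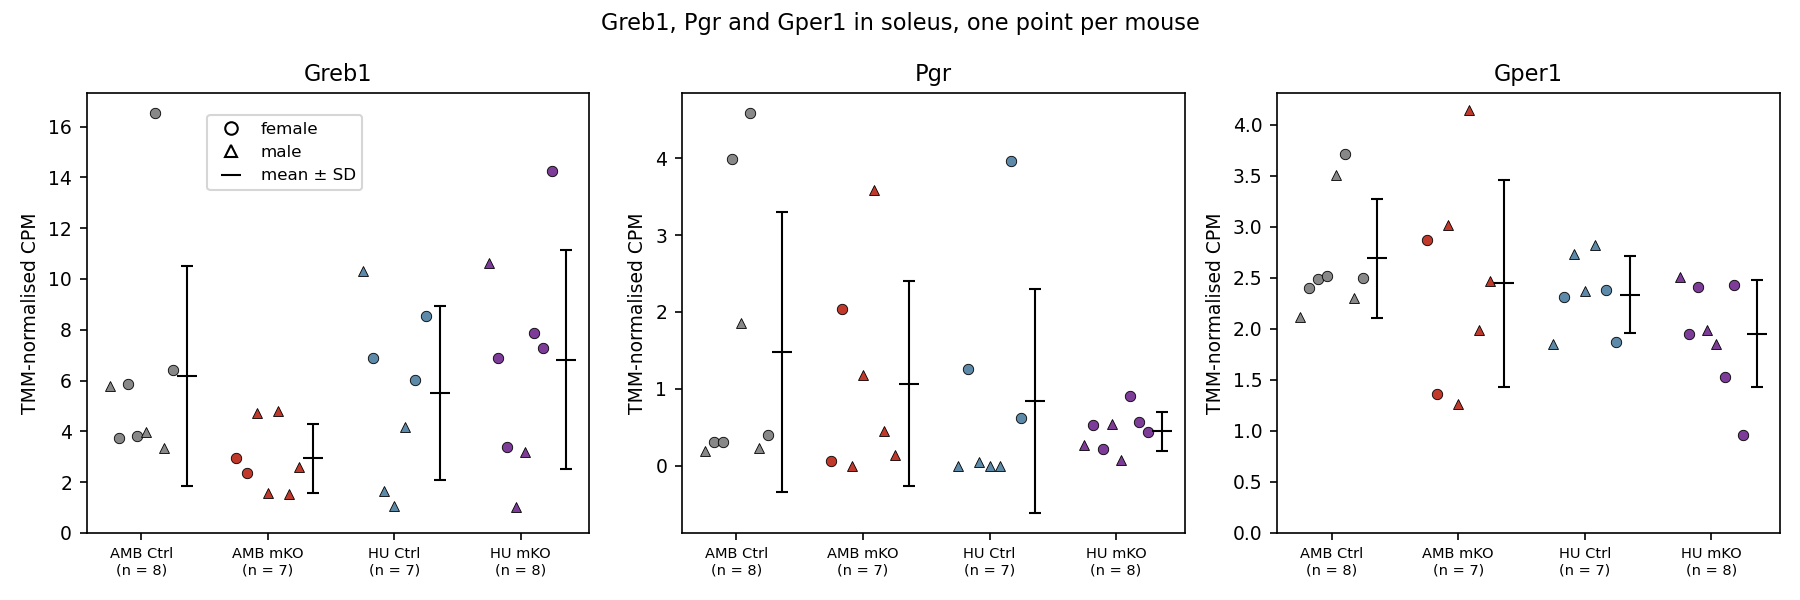
Normalised counts (CPM) of Greb1, Pgr and Gper1 for each mouse in the 4 groups, circles for females and triangles for males, with the mean and SD of each group. The groups overlap for all 3 genes, with most AMB mKO mice low in Greb1 and a few mice carrying most of the Pgr counts.

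**Figure D3:**
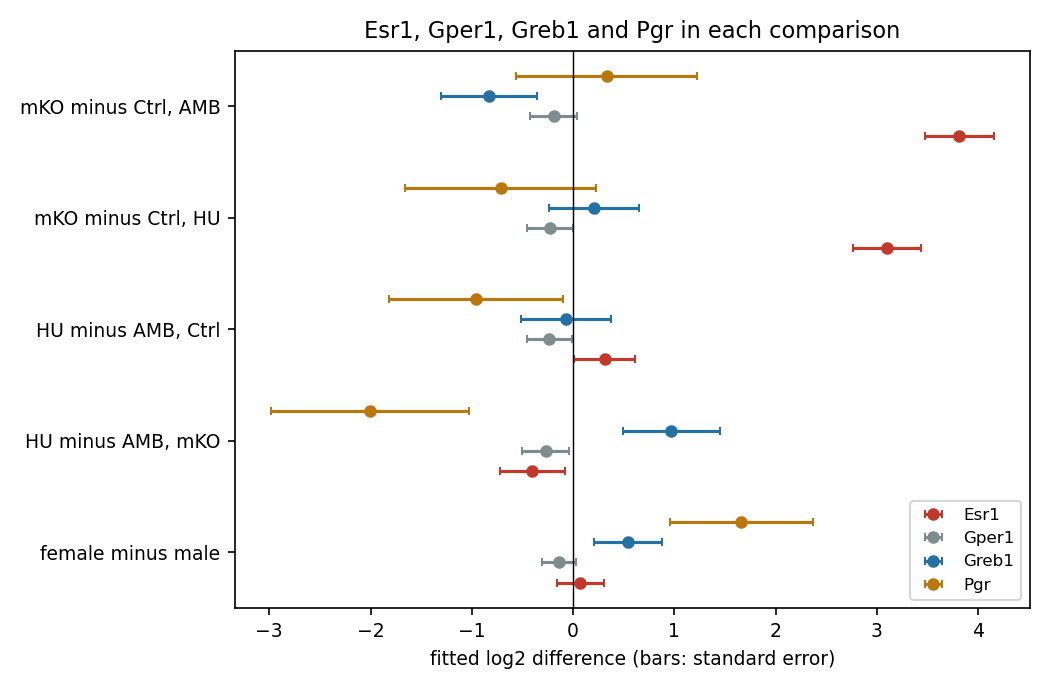
Fitted log2 differences of Esr1, Gper1, Greb1 and Pgr, with standard errors, for mKO minus control, unloaded minus ambulatory and female minus male. Esr1 lies at 3.81 and 3.10 in the 2 genotype comparisons, by which it was chosen, and Pgr has the widest errors.

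The promoters are shown because receptor alpha binds DNA at oestrogen response elements, whose consensus form is the palindrome GGTCANNNTGACC. The windows run from 250 bases before to 50 bases after each RefSeq start in build GRCm38.p6, printed 5′ to 3′ on the gene's strand. Capitals mark its single arm, GGTCA on either strand, which reads TGACC where it lies on the other one.

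Esr1 start 1, chr10:4611739-4612038, plus strand: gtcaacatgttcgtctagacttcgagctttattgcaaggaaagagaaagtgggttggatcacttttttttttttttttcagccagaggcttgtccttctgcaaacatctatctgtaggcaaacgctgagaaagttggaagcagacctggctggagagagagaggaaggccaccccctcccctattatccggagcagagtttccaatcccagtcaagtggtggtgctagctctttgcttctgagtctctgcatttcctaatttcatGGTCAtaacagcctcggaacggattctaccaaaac

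Greb1 start 1, chr12:16800837-16801136, minus strand: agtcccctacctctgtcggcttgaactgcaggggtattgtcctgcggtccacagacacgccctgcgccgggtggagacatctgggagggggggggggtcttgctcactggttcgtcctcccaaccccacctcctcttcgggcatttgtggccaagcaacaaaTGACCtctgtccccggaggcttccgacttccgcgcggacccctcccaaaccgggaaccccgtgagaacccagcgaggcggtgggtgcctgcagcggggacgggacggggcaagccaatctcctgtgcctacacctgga

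Greb1 start 2, chr12:16757190-16757489, minus strand: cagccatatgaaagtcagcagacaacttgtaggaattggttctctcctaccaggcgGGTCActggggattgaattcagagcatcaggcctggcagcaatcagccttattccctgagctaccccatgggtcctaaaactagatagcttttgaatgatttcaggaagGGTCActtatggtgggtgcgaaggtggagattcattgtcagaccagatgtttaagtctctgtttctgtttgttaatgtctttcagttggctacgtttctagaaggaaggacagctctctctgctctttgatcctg

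Pgr, chr9:8899583-8899882, plus strand: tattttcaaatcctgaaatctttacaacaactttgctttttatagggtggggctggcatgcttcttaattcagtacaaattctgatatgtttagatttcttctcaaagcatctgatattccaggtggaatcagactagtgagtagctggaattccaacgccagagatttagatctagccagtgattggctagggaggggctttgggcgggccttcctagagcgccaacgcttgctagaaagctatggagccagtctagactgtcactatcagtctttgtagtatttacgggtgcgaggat

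None of the 6 windows of the 4 genes held the palindrome, which was in 23 of 32851 promoter windows (0.07%). Single arms were in 3 of the 6 windows, 1 in Esr1 start 1, 1 in Greb1 start 1 and 2 in Greb1 start 2, against 40.5% of all windows. No match says only that these letters are not in these windows.

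Across the 15 mKO mice, which spanned 76.6 to 685 CPM of Esr1, no relation of the other 3 genes to Esr1 passed the test. On log2(CPM + 0.5) Greb1 had r = 0.114 (permutation p = 0.694) and rho = 0.0429 (p = 0.886), Pgr r = -0.0838 (p = 0.734) and rho = 0.0821 (p = 0.771), and Gper1 r = 0.0509 (p = 0.855) and rho = 0.025 (p = 0.936), by two-sided permutation tests. Adjusted over the 3 relations, each p was 0.855 for r and 0.936 for rho. Without the 2 mice farthest from the median Esr1, AMB mKO replicate 2 and HU mKO replicate 3, r was -0.0595, 0.216 and -0.162. These values pool both loading conditions and sexes. As deviations from the mean of the own group and sex, r was 0.211, -0.172 and -0.0591 (permutation p = 0.454, 0.538 and 0.831). On those deviations rho was 0.361, -0.118 and -0.0679 (permutation p = 0.189, 0.673 and 0.81). The mouse with the most Esr1, HU mKO replicate 6, had 7.86 CPM of Greb1, and the next, AMB mKO replicate 7, had 2.60 CPM.

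The 2 loading conditions gave different values. In the 8 HU mKO mice r was 0.731 for Pgr (exact permutation p = 0.035, adjusted p = 0.105) and 0.548 for Greb1 (exact permutation p = 0.14, adjusted p = 0.211), and rho was 0.714 for both (exact permutation p = 0.0576, adjusted p = 0.0864). In the 7 AMB mKO mice r was -0.394 for Pgr and -0.175 for Greb1 (exact permutation p = 0.448 and 0.706), and rho was -0.143 and -0.393 (exact permutation p = 0.783 and 0.396). The difference between the loading conditions was not tested. In HU mKO mice Pgr had 1 to 13 reads, and replicate 6 was highest in both Esr1 (685 CPM) and Pgr (0.90 CPM). The letter b mice of that group (n = 3), all female, had the highest letter means of Esr1, Pgr (0.64 CPM) and Greb1 (9.80 CPM). Within title letter b, the only letter with 6 mKO mice, r was 0.078 for Pgr and -0.315 for Greb1 (exact permutation p = 0.889 and 0.531), and letters a and c held too few mice. In the 15 controls r was 0.323 for Greb1, 0.352 for Pgr and 0.179 for Gper1 (permutation p = 0.238, 0.201 and 0.51), and rho 0.468, 0.158 and 0.0536 (permutation p = 0.0803, 0.573 and 0.848).

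**Figure D4:**
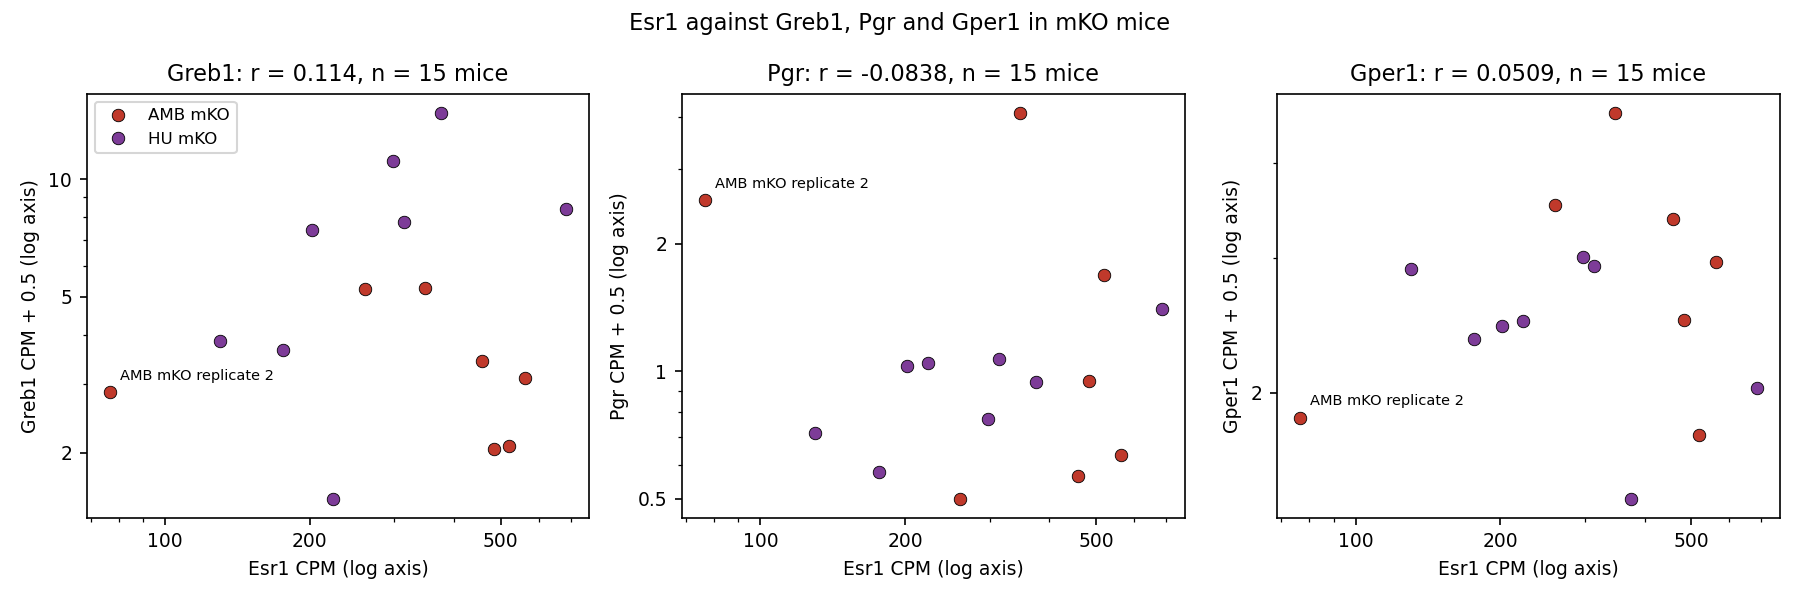
Greb1, Pgr and Gper1 (CPM + 0.5) against Esr1 (CPM) in the 15 mKO mice, both axes logarithmic, 1 point per mouse, ambulatory in red and unloaded in purple. The points show no common slope (r = 0.114, -0.0838 and 0.0509), and AMB mKO replicate 2 lies alone at the low end of Esr1.

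A model of all genes on log2 Esr1 in mKO mice, with terms for loading and sex, called none of the 3 genes. Per doubling of Esr1 the log2 slope was 0.31 ± 0.28 for Greb1 (adjusted p = 0.425), -0.11 ± 0.47 for Pgr (adjusted p = 0.886) and -0.02 ± 0.19 for Gper1 (adjusted p = 0.956, edgeR). Of 16931 genes the model called 2620 with a positive slope (15.5%) and 2459 with a negative one (14.5%). That count moved with 1 library and with the title letter. Without AMB mKO replicate 2, 29 of 17054 genes were called (0.17%), and with the title letter as covariate and all mice 1 was. None was called without the 3 libraries highest in adipocyte genes, where 649 had an unadjusted p below 0.05.

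A list of 35 other genes known to respond to oestrogen, such as Ccnd1, Myc, Igf1 and Xbp1, gave a wider view. Of the 29 tested, none was called between genotypes in either loading condition, where 0.0177% of all genes were called in each. With all mice, 6 of the 29 in ambulatory and 0 in unloaded mice had an unadjusted p below 0.05 (edgeR). Over all 16932 genes these counts were 1291 and 301. Their median log2 difference was 0.11 in ambulatory mice (17 of 29 higher) and 0.03 in unloaded mice (15 of 29 higher), against 0.02 and 0.01 over all genes. The smallest p in ambulatory mice belonged to Nrip1, a corepressor that the receptor induces (log2 0.90 ± 0.27 SE, adjusted p = 0.534), and to Igfbp4, which binds insulin-like growth factors (log2 0.93 ± 0.36, adjusted p = 0.579). They were 0.27 ± 0.19 and 0.07 ± 0.28 without AMB mKO replicate 2 (log2, SE; adjusted p = 1 for both). In unloaded mice they belonged to the cytokine Lif (log2 -0.69 ± 0.40) and the receptor tyrosine kinase Ret (log2 0.32 ± 0.20), both with adjusted p = 1.

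From mouse to mouse within mKO, the target list spread on both sides of 0 in its rank correlation with Esr1. Ambulatory and unloaded mice were pooled for it. Of the 29 genes 14 had a positive Spearman rho, with a median of -0.00357, against a median of -0.025 over all genes, 48.2% of them positive. The highest were Hspb8, a small heat shock protein, at 0.832 and Siah2, a ubiquitin ligase, at 0.646. The lowest were Cyp1b1, an oestrogen-hydroxylating enzyme, at -0.782 and complement C3 at -0.664. Without AMB mKO replicate 2 these 4 values were 0.675, 0.534, -0.736 and -0.587. The slope model had called 5 of these 29 genes upward and 9 downward, beside 15.5% and 14.5% of all genes. Without that library it called no gene of any list, beside 0.17% of all genes.

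Fibre genes went with Esr1 in mKO mice. All 10 fibre genes, among them Acta1, Ckm and Myh7, had a positive rho, with a median of 0.68 over 15 mice and 0.585 without AMB mKO replicate 2, while in controls 3 of 10 were positive with a median of -0.162. All 10 adipocyte genes were negative in mKO mice (median -0.632, and -0.538 without replicate 2). They were mostly negative in controls too, with 1 of 10 positive and a median of -0.204. Genes of receptor chaperones, which hold steroid receptors ready for hormone, had a median of 0.45 with 6 of 8 positive, and 0.316 with 5 of 8 without replicate 2. Controls had 4 of 8 chaperone genes positive, with a median of -0.0375. These points share libraries and are given as a description. All rho of this paragraph pool ambulatory and unloaded mice, with no term for loading or title letter. In HU mKO mice the fibre genes summed to 300920 to 304370 CPM in letter b, where Esr1 averaged 458 CPM. Letters a and c had 100080 to 216300 CPM, with Esr1 means of 199.8 and 210 CPM. In AMB mKO mice letter b had 231980 to 278030 CPM and letters a and c 8835 to 251530 CPM, with overlap. How much the letter adds to these rho was not tested. The median unloading difference of the fibre genes was -0.656 in controls and -0.277 in mKO mice (log2). The ratio of unloaded to ambulatory Esr1 means was 1.23 in controls and 0.78 in mKO mice. How much loading adds to these rho was not tested. In the slope model, with terms for loading and sex but none for title letter, 10 of 10 fibre genes had a positive slope. Without replicate 2 it was 9 of 10. The genes most like Esr1 over the 15 mKO mice, among 13383 with an official symbol, were Wfdc1 (rho 0.95), Foxo6os (0.943), Casq1, the calcium store protein of fibres (0.925), Hacd1 (0.921) and Ccdc117 (0.918). In controls the same 5 genes had rho 0.411, 0.368, 0.246, -0.254 and 0.0893.

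**Figure D5:**
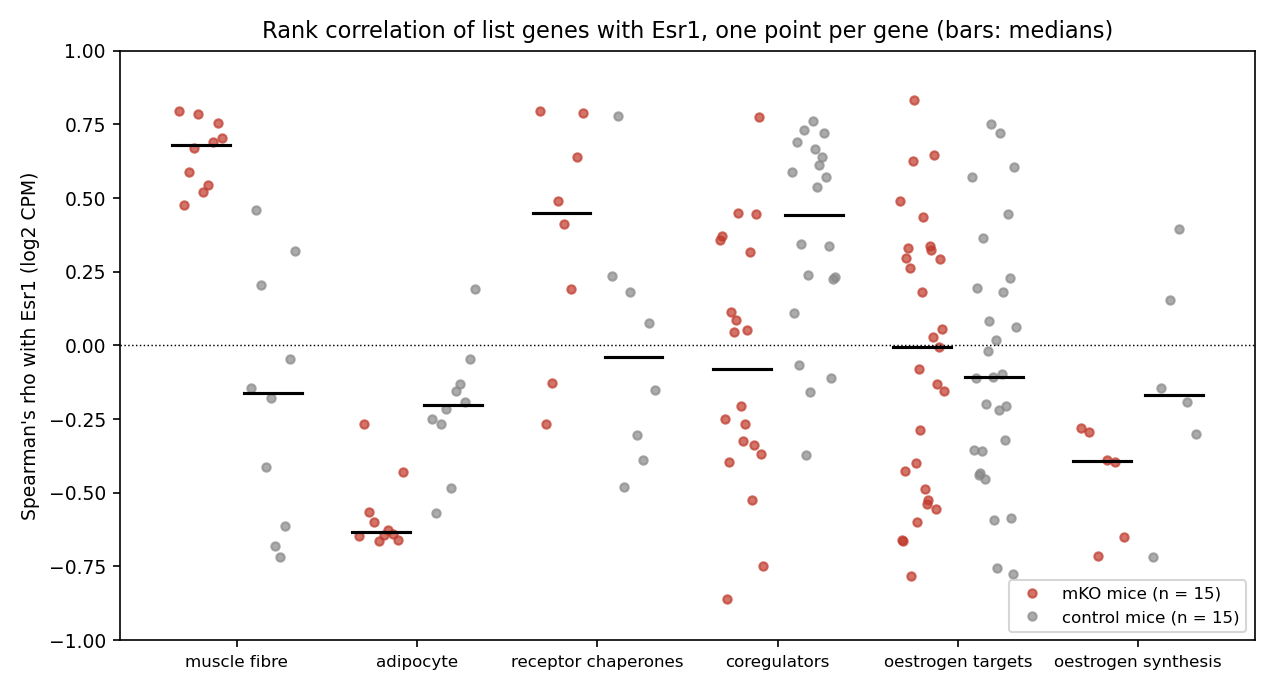
Spearman's rho with Esr1 for each gene of 6 lists, in the 15 mKO mice (red) and the 15 control mice (grey), with bars at the medians. Ambulatory and unloaded mice and all title letters are pooled. All 10 fibre genes lie above 0 in mKO mice and 3 of 10 in controls (medians 0.68 and -0.162), and oestrogen targets spread on both sides of 0 (median -0.00357).

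Taking deviations from the mean of the own group over all 30 mice, the genes most like each of the 4 differed. For Esr1 they were Sel1l3 (rho 0.842), Lrrn1 (0.83) and Rspo3 (0.826). For Greb1 they were Slc4a7 (0.825), Rps6ka5 (0.765) and Snap23 (0.736), and for Pgr Socs2 (0.784), Klk1 (0.766) and C1qtnf1 (0.763). Gper1 was most like the endothelial genes Ptprb (0.717) and Flt1 (0.681), and Shroom4 (0.675). Within one genotype, on log2(CPM + 0.5), rho with Esr1 was 0.836 in mKO and 0.407 in control mice for Sel1l3, 0.0571 and 0.868 for Lrrn1, and 0.736 and 0.786 for Rspo3. Unlike the deviations, these values pool ambulatory and unloaded mice. Lrrn1 averaged 47.6 CPM in AMB Ctrl and 104 CPM in HU Ctrl mice. Its means were 38.4 CPM in AMB mKO and 96.1 CPM in HU mKO mice. How much loading adds to these rho was not tested. The deviations of Esr1 without AMB mKO replicate 2 gave rho 0.782 for Sel1l3, 0.733 for Lrrn1 and 0.789 for Rspo3. For the 9 genes named beside Gper1, Greb1 and Pgr that value ran from 0.631 to 0.81 over 29 mice.

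Unloading changed other genes of the pathway, while none of the 4 passed the test. In controls 7 of the 29 target genes passed the test, 2 higher and 5 lower, and in mKO mice 5 did, 1 higher and 4 lower, where 11.1% and 10.1% of all genes were called. Vegfa, the growth factor of blood vessels, fell from 335 ± 85.0 to 109 ± 35.1 CPM in controls (SD, n = 8 and 7; log2 -1.70 ± 0.21 SE, adjusted p = 2.4e-05, edgeR) and from 273 ± 91.3 to 101 ± 22.4 CPM in mKO mice (2.53-fold, adjusted p = 0.000415). Wnt4, a secreted ligand, rose from 2.25 ± 0.62 to 12.8 ± 8.62 CPM in controls (log2 2.49 ± 0.45, adjusted p = 0.000713) and from 2.27 ± 1.13 to 11.9 ± 7.72 CPM in mKO mice (log2 2.42 ± 0.47, adjusted p = 0.0023). Ccnd1, the cell cycle gene cyclin D1, the chemokine Cxcl12 and the lysosomal protease Ctsd fell in both genotypes, Ret fell in controls, and Igfbp5 rose in controls. Without AMB mKO replicate 2 Nrip1 rose as well in controls, and in mKO mice 3 target genes rose, Igfbp5, Nrip1 and Wnt4, and the same 4 fell.

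Among other receptors, Nr3c2 rose in unloaded controls, from 37.2 ± 5.73 to 52.2 ± 6.36 CPM (log2 0.49 ± 0.13, adjusted p = 0.0123, edgeR). It rose in mKO mice as well (log2 0.58 ± 0.13, adjusted p = 0.0064). Of 20 tested coregulators, beside 11.1% and 10.1% of all genes called, 2 rose in controls, the coactivator Ncoa1 and the RNA helicase Ddx5, and 6 in mKO mice, Ncoa1, Ncoa3, Crebbp, Safb2, Lcor and Ddx5, and none fell. Without AMB mKO replicate 2 Nrip1 joined them in both genotypes and Crebbp in controls, and Lcor was lost. The chaperones Hspa8 and Stip1 fell in controls and Fkbp5 rose, and Hspa8 fell in mKO mice, where Stip1 fell and Fkbp5 rose as well without that library. Hbegf, a ligand released in Gper1 signalling, fell in both genotypes. Between sexes 1 target gene was called, Stc2, a secreted glycoprotein, higher in females (log2 0.77 ± 0.15, adjusted p = 0.016), which was lost without AMB mKO replicate 2.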

How the data were processed

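Soleus RNA from 30 mice was measured as read counts per gene. The deposited values are raw counts per Ensembl gene, 1 column per mouse, not normalised. Per the submitters' processing notes, STAR 2.7.9a, cutadapt 1.16, DESeq2 1.34.0 and featureCounts 1.6.3 were used with builds GRCm39 and mm39. The strand setting and annotation release of the authors' counting were not given in the sources used here. Antisense and overlapping reads may not be separated. The library kit is directional, per the labels' protocols. The rest of those protocol texts speaks of people and myotubes and was not used.

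Counts were filtered with edgeR 4.0.16 (filterByExpr by group), normalised by TMM and fitted by a robust quasi-likelihood model with group and sex under R 4.3.3. The threshold was 0.05 on p-values adjusted by Benjamini-Hochberg across every tested gene. Values after ± are SD beside CPM and SE beside log2 differences. Correlations used log2(CPM + 0.5) and 100000 resamples, or all pairings for 8 mice or fewer, in scipy 1.17.1. Lengths per kilobase are union exons of another annotation than the authors' own, and promoters are RefSeq GRCm38.p6 windows, matched by symbol for all 4 genes. The model was also run on simulated counts, drawn independently for each gene, with Esr1 set without noise for the slope. They held no fibre-poor library and no effect of title letter, so they say nothing on either.

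The members and lists were chosen with earlier results of these data known. Named genes were the 4 members, Prkaa1, Prkaa2 and Esr2, up to 4 called genes per list and comparison or the 2 with the smallest p where none was called, the target genes with the 2 highest and 2 lowest rho, the genes most like a member, and the neighbours of Esr1. Some further called genes of a list were named after their values were seen. Some list genes are not reported here. Replicates are separate mice as the titles number them, and numbers within a group follow accession order. Alternatives were DESeq2 1.42.0, median-of-ratios size factors, the compared groups alone, a model with the title letter or without sex, no filter on low counts or 1 CPM as the least mean, and AMB mKO replicate 2 left out. Leaving out each other mouse, or the 3 libraries highest in adipocyte genes, was chosen after seeing the data, as were the values of list genes, neighbours and likeness without AMB mKO replicate 2.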

Additional observations from a re-analysis of the deposited data

Results flagged for a closer look

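In 3 of the 16 combinations of gene and group, 1 mouse lay far from the others by Dixon's criterion. Chance exceeds it in about 1 of 20 groups of normally distributed values. It was applied to CPM without a log step, and each flagged mouse was the highest of its group. Whether that rate holds for such values was not tested. For Esr1, HU mKO replicate 6 measured 684.88 CPM, where the next mouse had 375 CPM. For Greb1, AMB Ctrl replicate 6 measured 16.534 CPM, where the next had 6.41. For Pgr, HU Ctrl replicate 6 measured 3.9637 CPM, where the next had 1.26 CPM.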

How the results depend on the processing

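Of 505 tested values of the 4 genes under alternatives, none was called and 20 turned sign, and none of 21 correlations passed. Esr1 between genotypes kept its direction in all alternatives (log2 3.47 to 4.09 ambulatory, 2.83 to 3.25 unloaded). No paired analysis was possible because replicate numbers were given in accession order and mouse numbers in the titles are not shared between groups.

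Counts of called genes moved as follows, and the cause was not tested. Without the low-count filter, unloading called 1225 genes in controls and 987 in mKO mice. With the title letter as covariate it called 2591 in mKO mice, sex called 55 and the slope on Esr1 called 1. With the compared groups alone, ambulatory genotype called 1, and unloading 3098 in controls and 608 in mKO mice. DESeq2 called 9 for ambulatory genotype and 129 for sex. Leaving out each mouse in turn gave 2 to 5 genes for ambulatory genotype, 954 to 2302 for unloading in mKO mice (lowest without HU mKO replicate 5), 27 to 73 for sex (highest without AMB mKO replicate 1) and 29 to 6220 for the slope. The slope called 0 without the 3 adipocyte-rich libraries.

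These values turned sign. With sex left out the Gper1 slope was 0.000517. With the title letter Pgr under unloading in controls was 0.245, Esr1 by sex -0.17009, and the slopes of Gper1 and Pgr 0.12371 and 0.17419. Without the 3 adipocyte-rich libraries the slopes of Greb1 and Pgr were -0.10816 and 0.83426. Leaving out each mouse in turn gave -0.047415 to 0.23758 for Esr1 by sex, -0.40048 to 0.049963 and -0.48582 to 0.54502 for the slopes of Gper1 and Pgr, and -0.40128 to 0.22414 for Greb1 under unloading in controls. Without AMB mKO replicate 2 the sex difference of Esr1 between genotypes was 0.31021, and r with Esr1 was -0.0072 for Greb1, 0.264 for Pgr and -0.187 for Gper1. Other r values of turned sign were, for Greb1, -0.0595 without the 2 farthest mice, -0.175 in AMB mKO and -0.315 in letter b. For Pgr they were 0.216 without the 2 farthest mice, 0.731 in HU mKO and 0.078 in letter b. For Gper1 they were -0.162 without the 2 farthest mice, -0.0591 as deviations from group and sex and -0.475 in HU mKO. Pgr had 0 to 79 reads per library and Gper1 13 to 64, and the SD of Pgr within groups was 1.05 (log2).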
